A study of Mus musculus with 16 samples.

Results

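Necdin (Ndn) and 9 other imprinted genes that act on growth were followed in primary mouse astrocytes with and without the mitochondrial receptor NLRX1. The genes are Ndn, Peg3, Plagl1, Grb10, Igf2, H19, Dlk1, Meg3, Cdkn1c and Mest, and all 10 were found by symbol among the 16707 genes of the deposited log2 CPM table. Ndn was chosen by its log2 CPM, which had been seen to be lower in Nlrx1-/- astrocytes in both conditions, so its difference between genotypes is described here without a test. The other 9 were named as imprinted growth genes. Astrocytes were isolated from brains of P6 pups with beads against the surface antigen ACSA-2 and grown in serum-free medium with HB-EGF. The 2 genotypes, both on C57BL/6J, were WT and Nlrx1-/-, a knockout that every cell of the animal carried throughout development. There were 4 litters per genotype, each taken as 1 replicate, and each litter gave a well with vehicle (water in the methods) and a well with 500 ng/mL LPS and 10 ng/mL IFNγ for 24 h, which makes 16 libraries. The age of the pups is given as P6 in the methods and labels, and as an earlier postnatal age in the results text of the study.

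An imprinted gene is expressed mainly from 1 parental copy, and the choice of copy is set by DNA methylation laid down in the egg or the sperm. Genes expressed from the paternal copy often promote fetal growth and those expressed from the maternal copy often restrain it, although this has exceptions. Necdin, a MAGE family protein made from the paternal copy of the Prader-Willi syndrome region, is known for holding neurons out of the cell cycle. The libraries were not divided by parental copy, so the values below are sums over both.

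The genes lie at several imprinted loci. On GRCm39, with the GENCODE M39 annotation, Ndn spans chr7:61995473-62000010 on the plus strand, and Peg3 spans chr7:6706882-6733468 on the minus strand. Igf2 (chr7:142204503-142220694) and the non-coding RNA H19 (chr7:142129262-142133957) are neighbours on the minus strand, with Cdkn1c (chr7:143012069-143014806, minus strand) on the same chromosome. Dlk1 (chr12:109418749-109429262) and the non-coding RNA Meg3 (chr12:109506877-109538165) are neighbours on the plus strand of chromosome 12. Plagl1 (chr10:12936248-13007438, plus strand), Grb10 (chr11:11880498-11988683, minus strand) and Mest (chr6:30723546-30752058, plus strand) lie alone among the 10. The libraries carry no strand information, so reads from exons shared with genes on the other strand cannot be told apart. Mest shares 3850 exon bases with Copg2, Cdkn1c shares 625 with Gm44732, and Igf2 shares 254 with Igf2os and 347 with Gm33148. Igf2 also shares 3599 exon bases with Gm49394 on its own strand.

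Promoters are shown for Ndn, the gene the account centers on, and for Plagl1 and Grb10, whose levels with LPS + IFNγ were highest in the same 2 Nlrx1-/- litters. CG sites are marked in them, since imprinting depends on methylation at CG sites. Whether the sites marked here carry an imprint was not examined. Each runs from 250 bases before to 50 after a transcript start in RefSeq's GRCm38.p6 table, and each matched GRCm39 exactly at 1 place. Capitals mark CG dinucleotides.
Ndn, chr7:61997775-61998074, plus strand: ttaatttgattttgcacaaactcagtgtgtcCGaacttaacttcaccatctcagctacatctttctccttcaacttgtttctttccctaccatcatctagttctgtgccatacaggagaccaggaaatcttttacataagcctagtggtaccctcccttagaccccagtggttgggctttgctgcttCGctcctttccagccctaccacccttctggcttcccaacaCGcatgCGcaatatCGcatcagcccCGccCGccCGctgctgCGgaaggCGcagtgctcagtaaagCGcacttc
Plagl1, chr10:12966326-12966625, plus strand: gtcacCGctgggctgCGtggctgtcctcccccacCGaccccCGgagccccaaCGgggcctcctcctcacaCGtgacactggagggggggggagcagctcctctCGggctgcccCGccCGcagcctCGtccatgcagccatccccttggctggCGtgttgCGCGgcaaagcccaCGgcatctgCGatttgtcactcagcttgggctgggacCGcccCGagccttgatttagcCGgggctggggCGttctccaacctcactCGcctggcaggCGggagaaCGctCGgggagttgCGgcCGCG
Grb10, the first of its 2 listed promoters, chr11:11987371-11987670, minus strand: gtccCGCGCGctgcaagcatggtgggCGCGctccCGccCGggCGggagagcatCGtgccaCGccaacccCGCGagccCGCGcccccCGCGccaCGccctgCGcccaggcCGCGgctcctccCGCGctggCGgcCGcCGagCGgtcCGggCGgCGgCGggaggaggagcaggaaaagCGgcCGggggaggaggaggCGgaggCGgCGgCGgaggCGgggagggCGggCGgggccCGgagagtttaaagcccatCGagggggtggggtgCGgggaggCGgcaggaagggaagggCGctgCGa
The Ndn promoter holds 11 CG sites, against 26 for Plagl1, 45 for Grb10 and a median of 7 over 32851 promoters of the same length. Of all those promoters, 26.5% hold 20 or more CG sites. RefSeq's table holds a promoter for 8 of the 10 genes, and Plagl1, Grb10 and Igf2 are the 3 with a promoter of 20 or more CG sites. The letters GGGGCCCC, searched on both strands, occur in 1.08% of the promoters and in 1 of the 15 promoters of these genes, that of Peg3. These counts describe the DNA only, and methylation was not measured.

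The libraries held from 27259420 to 43752903 read pairs that Salmon placed on transcripts. Nlrx1 lay between 4.08 and 4.44 log2 CPM in the 8 WT libraries and between 1.09 and 2.96 in the 8 Nlrx1-/- libraries, so the genotypes did not overlap. All 9 astrocyte markers on the list used (Gfap, Aqp4, Aldh1l1, Slc1a3, Slc1a2, Sox9, S100b, Atp1b2 and Gja1) were present. Of 8 microglial markers, Cx3cr1, Tmem119, Csf1r, Aif1, Itgam and C1qa were not among the genes of the table, and the other 2 summed to 25.9 to 48 CPM. All 7 oligodendrocyte lineage markers used (Pdgfra, Cspg4, Olig1, Olig2, Sox10, Mbp and Mog) were in the table and summed to 2085 to 3719 CPM per library. The other lists were lower, with 33.6 to 108 CPM over 7 of 8 neuronal markers, 88.6 to 236 CPM over 4 of 5 ependymal markers and 0.917 to 5.82 CPM over 1 of 4 endothelial markers. Nlrx1-/- litters 2 and 4 stood apart from litters 1 and 3 in several values below, and litter 3 in others. In these bulk libraries, fewer cells of a type and less RNA per cell cannot be told apart.

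Levels of different genes were compared per transcript length, as TPM. In WT vehicle libraries Mest was highest, with a mean of 323 ± 14.5 TPM (SD, n = 4 litters), followed by Ndn with 192 ± 18.6 TPM. Cdkn1c (47.3 ± 6.40 TPM), H19 (40.4 ± 3.71 TPM), Plagl1 (38.6 ± 7.08 TPM) and Peg3 (32.4 ± 8.53 TPM) formed a middle group whose neighbours overlapped between litters. Dlk1 (14.4 ± 1.90 TPM) lay below Peg3 and above Meg3 in every litter, while Meg3 (8.36 ± 2.13 TPM), Grb10 (8.15 ± 2.60 TPM) and Igf2 (4.98 ± 2.79 TPM) overlapped with their neighbours. Mest lay above Ndn, and Ndn above Cdkn1c, without overlap. The TPM of Mest, Peg3 and Igf2 cover only the transcripts that could be paired with the gene, and are therefore lower limits. Salmon gave Ndn between 2152 and 6024 reads per library, against 51 to 858 for Meg3 and 61 to 633 for Dlk1, so the low genes carry more counting error.

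**Figure D1:**
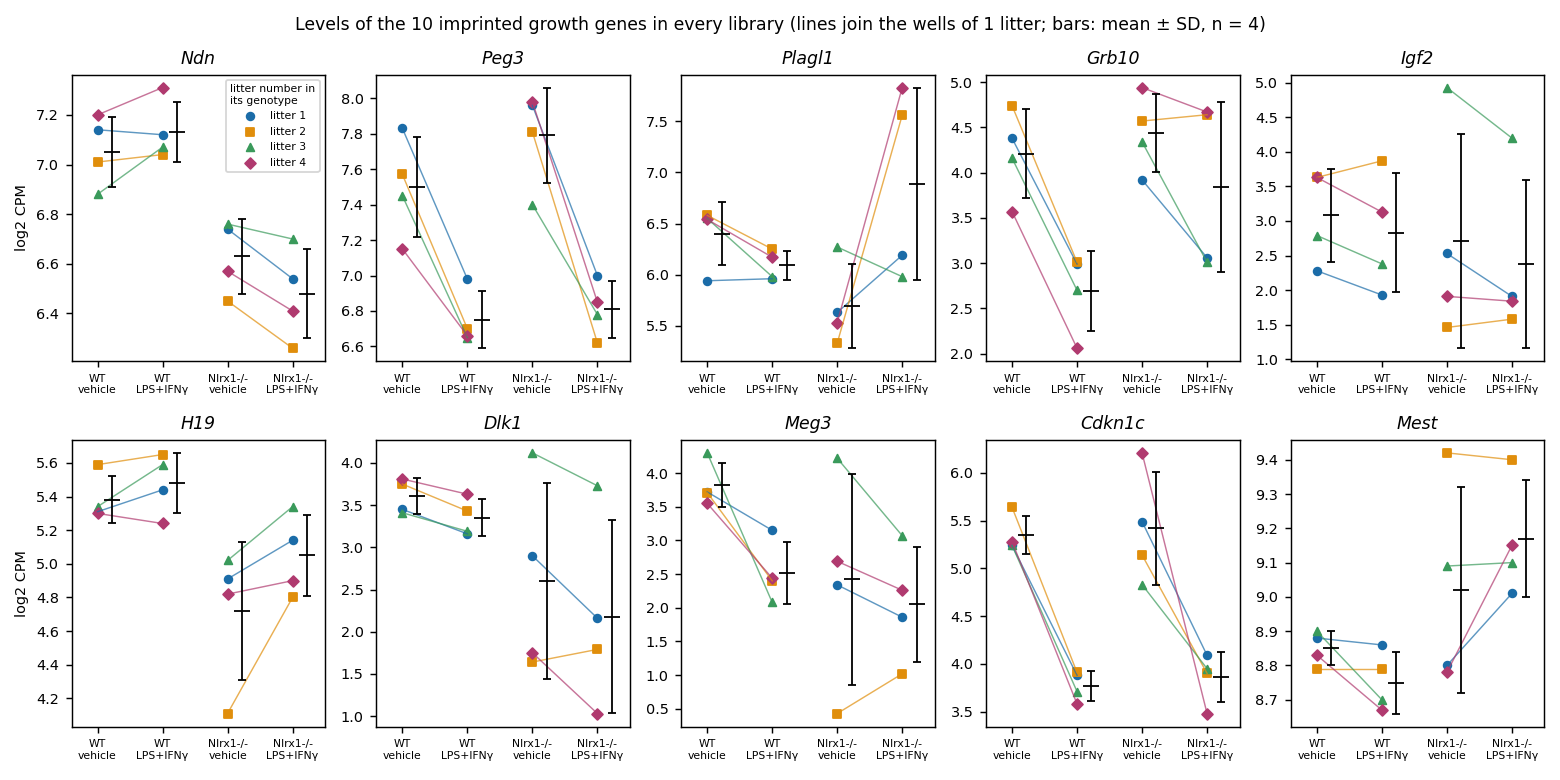
Log2 CPM (y axis, with its own range in each panel) of the 10 genes in the 4 conditions (x axis). Symbols and colors give the litter number within its genotype, lines join both wells of a litter, and black bars are the mean ± SD of 4 litters. The 8 Ndn points of Nlrx1-/- lie at 6.26 to 6.76, below all 8 WT points at 6.88 to 7.31.

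Ndn was lower in Nlrx1-/- astrocytes than in WT astrocytes in both conditions, which is the difference it was chosen for. In vehicle, Ndn was at 7.14, 7.01, 6.88 and 7.20 log2 CPM in the WT litters, in the order of their numbers, and at 6.74, 6.45, 6.76 and 6.57 in the knockout litters. With LPS + IFNγ it was at 7.12, 7.04, 7.07 and 7.31 in WT and at 6.54, 6.26, 6.70 and 6.41 in Nlrx1-/-. Every Nlrx1-/- litter lay below every WT litter, with litter 2 lowest in both conditions. Over all 16707 genes, 3.43% had every Nlrx1-/- litter below every WT litter in vehicle and 6.23% with LPS + IFNγ. Nothing is read from these shares for Ndn, since it was chosen by the same values. The fitted log2 difference was -0.43 ± 0.10 (SE) in vehicle and -0.66 ± 0.10 with LPS + IFNγ. Leaving out any 1 litter, and every other setting, kept it between -0.49 and -0.37 in vehicle and between -0.75 and -0.59 with LPS + IFNγ. On the TPM scale the means were 192 ± 18.6 and 138 ± 16.1 in vehicle and 174 ± 17.8 and 110 ± 17.4 with LPS + IFNγ (SD, n = 4), in WT and Nlrx1-/- respectively.

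Some markers of astrocytes also differed between the genotypes with LPS + IFNγ. The 9 markers summed to 6434 to 10213 CPM in WT vehicle and 5803 to 8701 CPM in WT with LPS + IFNγ, and in Nlrx1-/- to 4968 to 7913 CPM in vehicle and 5058 to 6728 CPM with LPS + IFNγ. These ranges overlapped, with the lowest sums in Nlrx1-/- litters 2 and 4. With LPS + IFNγ the fitted log2 difference was below 0 for 9 of 9, with a median of -0.91, and 2 were called lower, the calcium-binding protein S100b (-2.0 ± 0.51, edgeR, adjusted p = 0.0439) and the gap junction protein Gja1 (-1.33 ± 0.36, edgeR, adjusted p = 0.0472). In vehicle it was below 0 for 7 of 9, with a median of -0.40, and 0 were called in edgeR or limma while 6 had an unadjusted p under 0.05. Median differences over all genes were 0.00 in vehicle and -0.01 with LPS + IFNγ in edgeR, where 2.38% of all genes were called lower with LPS + IFNγ. In vehicle, 3152 of 16066 genes had an unadjusted p under 0.05 in edgeR. With LPS + IFNγ edgeR called 808 genes, and 1, 2 and 1 without WT litter 2, 3 and 4. It called 0 with only the compared libraries. The marker calls here and in the next paragraph carry that limit. The 9 markers differed to unequal extents. Mean Aldh1l1 with LPS + IFNγ was 10.11 log2 CPM in WT and 10.06 in Nlrx1-/-, and mean Slc1a3 was 11.37 and 11.33. In vehicle both were slightly higher in Nlrx1-/-, at 9.53 and 9.69 for Aldh1l1 and 11.13 and 11.18 for Slc1a3.

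Of the 7 oligodendrocyte lineage markers, 6 were below 0 with LPS + IFNγ (median -0.74) and Pdgfra, a growth factor receptor of oligodendrocyte precursors, was called lower (-0.83 ± 0.19, edgeR, adjusted p = 0.0396). In vehicle their median was -0.23, with 4 of 7 below 0, 0 called in edgeR or limma and 4 at an unadjusted p under 0.05. Their summed level overlapped between the genotypes in both conditions. Among the other markers with LPS + IFNγ, Dynlrb2 of the ependymal list was called lower (-0.95 ± 0.26, edgeR, adjusted p = 0.0490) and Foxc1 of the fibroblast and mural list higher (0.81 ± 0.19, edgeR, adjusted p = 0.0396). The part of these cell types in the Ndn values was not tested.

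The response of Ndn to LPS + IFNγ was small in both genotypes. The difference between the wells of a litter was -0.02, 0.03, 0.19 and 0.11 log2 CPM in WT and -0.20, -0.18, -0.07 and -0.16 in the knockout. All 4 Nlrx1-/- litters were lower with LPS + IFNγ, and 3 of 4 WT litters were higher. In Nlrx1-/- astrocytes Ndn fell by 0.17 ± 0.05 on the log2 scale (edgeR, adjusted p = 0.0209), and in WT the log2 change was 0.07 ± 0.05 (edgeR, adjusted p = 0.318). Ndn was chosen by these same levels, so these p-values are not independent of that choice. The fall did not pass the threshold of 0.05 without Nlrx1-/- litter 1, 2 or 4 (adjusted p = 0.0917, 0.0607 and 0.0594), nor in the fit with no replicate block for the paired wells (0.224).

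Across the 10 genes, 0 rose and 4 fell with LPS + IFNγ in WT astrocytes, and 2 rose and 5 fell in Nlrx1-/- astrocytes. Ndn is among the 5, although it was chosen by its Nlrx1-/- levels. Over all genes in WT, 23.7% rose and 20.2% fell in edgeR, and 24.9% rose and 21.9% fell in limma on the deposited log2 CPM, which was used for Peg3, Igf2 and Mest. In Nlrx1-/- astrocytes the shares were 25.3% and 24.2% in edgeR and 26.6% and 25.5% in limma. The median log2 change over the 10 genes was -0.30 in WT and -0.39 in Nlrx1-/-, against -0.02 and -0.03 over all genes in edgeR. Without Nlrx1-/- litter 4 or litter 1, 4 genes passed in the Nlrx1-/- response instead of 7.

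**Figure D2:**
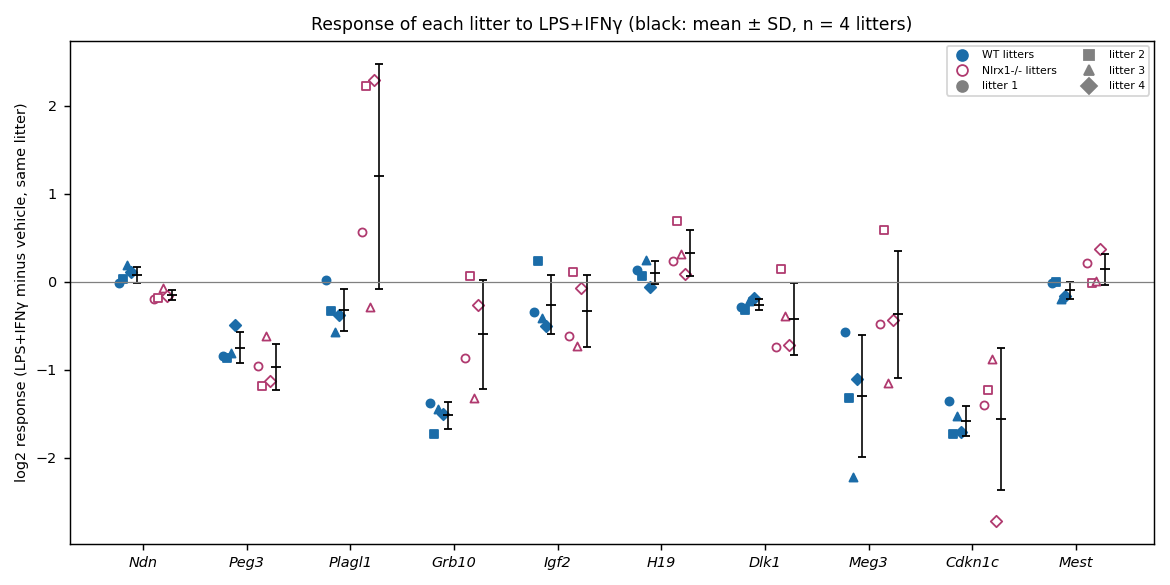
Log2 response to LPS + IFNγ of each litter (y axis, LPS + IFNγ well minus vehicle well) for the 10 genes (x axis), with filled blue symbols for WT and open red symbols for Nlrx1-/-. Symbol shapes give the litter, and black bars the mean ± SD of 4 litters. Grb10 lies between -1.73 and -1.38 in WT and between -1.32 and 0.07 in Nlrx1-/-, and Plagl1 reaches 2.23 and 2.29 in Nlrx1-/- litters 2 and 4.

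Cdkn1c fell to a similar extent in both genotypes. It encodes p57Kip2, an inhibitor of cyclin-dependent kinases that is made from the maternal copy. The litter responses were -1.36, -1.73, -1.53 and -1.71 log2 CPM in WT and -1.40, -1.23, -0.88 and -2.72 in Nlrx1-/-, with litter 4 of Nlrx1-/- farthest from the rest. In edgeR it fell by 1.60 ± 0.23 on the log2 scale in WT (adjusted p = 0.000303) and by 1.57 ± 0.24 in Nlrx1-/- (adjusted p = 0.000317). The difference between these responses was 0.03 ± 0.33 (adjusted p = 0.980), with a sign that changed between settings. Its level did not separate the genotypes, at 5.24 to 5.64 log2 CPM in WT and 4.83 to 6.21 in Nlrx1-/- in vehicle. Salmon divided its reads among 12 paired transcripts, and the share of the main one ranged from 0% to 62.8%, so only the gene total is used.

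Peg3, a paternally expressed zinc finger protein, also fell in both genotypes. It was at 7.83, 7.57, 7.45 and 7.15 log2 CPM in WT vehicle and at 6.98, 6.70, 6.65 and 6.66 with LPS + IFNγ. In Nlrx1-/- astrocytes it was at 7.96, 7.81, 7.40 and 7.98 in vehicle and at 7.0, 6.62, 6.78 and 6.85 with LPS + IFNγ. All 8 litters were lower with LPS + IFNγ and the conditions did not overlap within either genotype. In limma it fell by 0.75 ± 0.09 on the log2 scale in WT (adjusted p = 2.58e-05) and by 0.97 ± 0.09 in Nlrx1-/- (adjusted p = 2.59e-06). Only 59.8% to 81.7% of its reads could be paired with the gene, and edgeR on those reads gave -0.57 ± 0.13 and -1.0 ± 0.13. The genotypes overlapped in both conditions.

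Plagl1, a paternally expressed zinc finger transcription factor known to restrain cell division, rose in Nlrx1-/- astrocytes. Its level in vehicle was 5.94, 6.58, 6.55 and 6.54 log2 CPM in WT and 5.63, 5.33, 6.27 and 5.53 in Nlrx1-/-. With LPS + IFNγ it was 5.96, 6.25, 5.98 and 6.17 in WT and 6.19, 7.56, 5.98 and 7.83 in Nlrx1-/-. Nlrx1-/- litters 2 and 4 stood above all other libraries with LPS + IFNγ, whereas litters 1 and 3 lay within the WT range. The litter responses were 0.02, -0.33, -0.57 and -0.38 in WT and 0.57, 2.23, -0.29 and 2.29 in Nlrx1-/-. In edgeR the Nlrx1-/- response was 1.20 ± 0.37 (adjusted p = 0.0201), and the WT response was -0.33 ± 0.35 (adjusted p = 0.472). When only the WT libraries were fitted, Plagl1 passed in WT as well, in the other direction (-0.33, edgeR, adjusted p = 0.00876). The rise did not pass without litter 2 (0.83, adjusted p = 0.0995) or litter 4 (0.81, adjusted p = 0.104).

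Grb10, an adaptor protein that restrains signaling from the insulin and IGF receptors, fell in both genotypes. Its level in vehicle was 4.38, 4.74, 4.16 and 3.57 log2 CPM in WT and 3.92, 4.57, 4.34 and 4.94 in Nlrx1-/-. With LPS + IFNγ it was 2.99, 3.01, 2.70 and 2.06 in WT and 3.06, 4.64, 3.01 and 4.67 in Nlrx1-/-. The genotypes overlapped in vehicle, and with LPS + IFNγ every Nlrx1-/- litter lay above the highest WT litter, clearly so in litters 2 and 4 and barely in litters 1 and 3. In edgeR it fell by 1.54 ± 0.19 in WT (adjusted p = 9.59e-05) and by 0.60 ± 0.18 in Nlrx1-/- (adjusted p = 0.0201). The fall in Nlrx1-/- did not pass without litter 3 (-0.37, adjusted p = 0.0815) or litter 1 (-0.50, adjusted p = 0.0869), nor with no replicate block for the paired wells (-0.45, adjusted p = 0.361).

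The same 2 Nlrx1-/- litters differed in other genes. With LPS + IFNγ, the summed level of 10 proliferation genes was 1203 CPM in Nlrx1-/- litter 2 and 1355 CPM in litter 4, against 1786 to 2114 CPM in litters 1 and 3 and 1723 to 2091 CPM in WT. In vehicle, litters 2 and 4 were at 2029 and 1931 CPM and the WT litters at 1432 to 2390 CPM. The 9 astrocyte markers summed to 5186 and 5058 CPM in litters 2 and 4 with LPS + IFNγ and to 4968 and 5501 CPM in vehicle, below the 5542 to 7913 CPM of litters 1 and 3. All of WT lay at 5803 CPM or more, so Nlrx1-/- litter 1 with LPS + IFNγ, at 5542 CPM, was also below every WT library. Their part in the Plagl1 and Grb10 values was not tested.

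The remaining growth factors were Igf2, a fetal growth factor made from the paternal copy, and Dlk1, a paternally expressed membrane protein of the Notch ligand type. Igf2 in vehicle was at 2.28, 3.63, 2.79 and 3.63 log2 CPM in WT and at 2.53, 1.46, 4.93 and 1.91 in Nlrx1-/-. With LPS + IFNγ it was at 1.93, 3.87, 2.38 and 3.13 in WT and at 1.91, 1.58, 4.20 and 1.84 in Nlrx1-/-. Litter 3 of Nlrx1-/- was highest in both conditions and the genotypes overlapped. Between 53.2% and 99.5% of its reads could be paired with the gene. The Igf2 response was -0.26 ± 0.17 in WT (limma, adjusted p = 0.248) and -0.33 ± 0.17 in Nlrx1-/- (limma, adjusted p = 0.135).

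Dlk1 fell in Nlrx1-/- astrocytes. Its vehicle level was 3.45, 3.75, 3.41 and 3.81 log2 CPM in WT and 2.90, 1.64, 4.12 and 1.75 in Nlrx1-/-, and with LPS + IFNγ it was 3.16, 3.43, 3.19 and 3.63 in WT and 2.16, 1.79, 3.73 and 1.03 in Nlrx1-/-. Again litter 3 of Nlrx1-/- was the highest library of its condition, and the other 3 Nlrx1-/- litters lay below all WT litters. Dlk1 fell by 0.45 ± 0.15 in Nlrx1-/- (edgeR, adjusted p = 0.0252), and the WT response was -0.27 ± 0.14 (edgeR, adjusted p = 0.140). When only the WT libraries were fitted, the WT response of Dlk1 passed (-0.27, edgeR, adjusted p = 0.0351). The fall in Nlrx1-/- did not pass without litter 1 (adjusted p = 0.125), 3 (0.0529) or 4 (0.0912), nor with no replicate block for the paired wells (0.552).

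Meg3, a maternally expressed long non-coding RNA of the Dlk1 locus, fell in WT. Its litter responses were -0.57, -1.32, -2.22 and -1.11 log2 CPM in WT and -0.48, 0.59, -1.15 and -0.43 in Nlrx1-/-. In edgeR it fell by 1.31 ± 0.28 in WT (adjusted p = 0.00312), and the Nlrx1-/- response was -0.45 ± 0.29 (adjusted p = 0.213). In vehicle Meg3 was at 3.72, 3.71, 4.30 and 3.55 in WT and at 2.34, 0.43, 4.22 and 2.69 in Nlrx1-/-, where litter 3 was as high as the WT litters and litter 2 the lowest of all 16 libraries. With no replicate block for the paired wells the WT fall did not pass (adjusted p = 0.0898).

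H19, the maternally expressed non-coding RNA next to Igf2, rose in Nlrx1-/- astrocytes. Its litter responses were 0.13, 0.06, 0.25 and -0.06 log2 CPM in WT and 0.23, 0.69, 0.32 and 0.09 in Nlrx1-/-. The Nlrx1-/- response was 0.31 ± 0.09 (edgeR, adjusted p = 0.0168) and the WT response 0.08 ± 0.09 (edgeR, adjusted p = 0.485). All 4 Nlrx1-/- litters were higher with LPS + IFNγ, litter 2 the most, and without litter 2 the rise was 0.20 (adjusted p = 0.0690). In vehicle H19 was at 5.31, 5.59, 5.34 and 5.30 in WT and at 4.91, 4.11, 5.02 and 4.82 in Nlrx1-/-, which did not overlap.

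Mest, a paternally expressed protein with an alpha/beta hydrolase fold, had the highest TPM of the 10 genes in WT vehicle and the smallest SD between WT litters (0.05 log2 CPM in vehicle and 0.09 with LPS + IFNγ). It was at 8.88, 8.79, 8.90 and 8.83 log2 CPM in WT vehicle and at 8.86, 8.79, 8.70 and 8.67 in WT with LPS + IFNγ. In Nlrx1-/- it was at 8.80, 9.42, 9.09 and 8.78 in vehicle and at 9.01, 9.40, 9.10 and 9.15 with LPS + IFNγ. The genotypes overlapped in vehicle and did not overlap with LPS + IFNγ, where all 4 Nlrx1-/- litters were higher. The responses were -0.10 ± 0.06 in WT (limma, adjusted p = 0.244) and 0.14 ± 0.06 in Nlrx1-/- (limma, adjusted p = 0.0800). Between 77.0% and 79.1% of the Mest reads could be paired with the gene.

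The comparison of the genotypes covered the 9 genes other than Ndn. In vehicle, 0 of the 9 passed the threshold, and 2 had an unadjusted p under 0.05. The deleted gene Nlrx1 did not pass in edgeR either (-1.70 ± 0.24, edgeR, adjusted p = 0.0538), so a missing call does not show that a difference is absent. Over all genes 0% rose and 0% fell in edgeR in vehicle, and 0% rose and 0.00599% fell in limma, which is Nlrx1 alone, while 3152 genes in edgeR and 3532 in limma had an unadjusted p under 0.05. DESeq2 called 1 of the 9 in vehicle, H19, and 735 of 16066 genes over all. H19 was the 1 gene of the 9 with litters that did not overlap between genotypes in vehicle, where Nlrx1-/- was lower, as it was for 3.43% of all genes, while 6.02% had every Nlrx1-/- litter above every WT litter. In Nlrx1-/- against WT vehicle libraries the log2 difference of H19 was -0.64 ± 0.17 (edgeR, adjusted p = 0.112). The median of the 9 log2 differences was -0.37, against 0.00 over all genes in edgeR. Without Nlrx1-/- litter 3, H19 (-0.74, adjusted p = 0.0220), Dlk1 (-1.42, adjusted p = 0.0205) and Meg3 (-1.77, adjusted p = 0.0303) passed in edgeR, in a fit where 8.04% of all genes passed in edgeR and 9.68% in limma.

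With LPS + IFNγ, Mest was higher in Nlrx1-/- astrocytes and was the 1 gene of 9 that passed, while 4 of the 9 had an unadjusted p under 0.05. Over all genes 2.65% were higher and 2.38% lower in Nlrx1-/- in edgeR, and 4.40% higher and 4.41% lower in limma. An unadjusted p under 0.05 was found for 4559 of 16066 genes in edgeR and for 4950 of 16707 in limma. Mest differed by 0.41 ± 0.12 (limma, adjusted p = 0.0431), and edgeR on its paired reads gave 0.41 ± 0.12 (adjusted p = 0.0536). The difference in Mest did not pass without Nlrx1-/- litter 2 (adjusted p = 0.0562) or 4 (0.129), nor without WT litter 2, 3 or 4, where 0 of the 9 genes passed. Grb10 was 1.32 ± 0.38 (edgeR, adjusted p = 0.0547), Plagl1 1.00 ± 0.33 (edgeR, adjusted p = 0.0745) and H19 -0.44 ± 0.17 (edgeR, adjusted p = 0.103). The median of the 9 was 0.07, against -0.01 over all genes in edgeR. Grb10 and Mest had every Nlrx1-/- litter above every WT litter, as had 7.09% of all genes. Without Nlrx1-/- litter 3, 5 of the 9 passed, in a fit where 20.5% of all genes passed in edgeR and 23.2% in limma. Over all genes, edgeR called 808 in this comparison, and 1, 2 and 1 without WT litter 2, 3 and 4. At most 2 of the genes called in edgeR, markers above and list genes below included, kept their call in each of these fits.

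**Figure D3:**
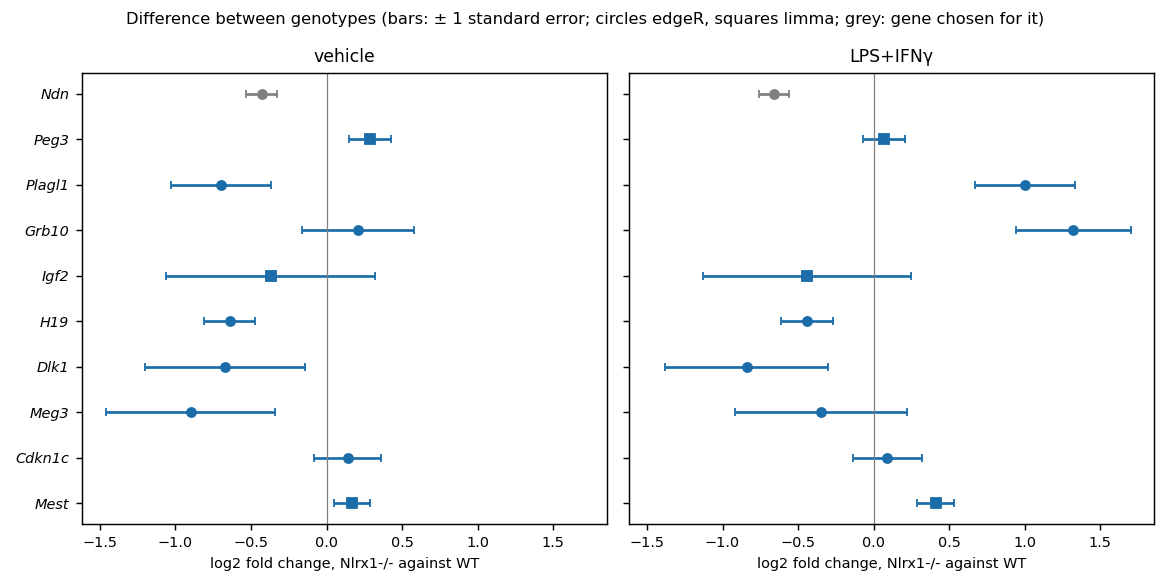
Log2 fold change of Nlrx1-/- against WT (x axis) for the 10 genes (y axis) in vehicle (left) and LPS + IFNγ (right), with bars of 1 standard error. Circles are edgeR fits and squares limma fits, and Ndn is grey because it was chosen for this difference. With LPS + IFNγ, Grb10 lies at 1.32, Plagl1 at 1.00 and Mest at 0.41, of which Mest passed the threshold.

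The responses of the genotypes were compared by the interaction of genotype and treatment. Of the 9 genes, 0 passed and 3 had an unadjusted p under 0.05. Over all genes 0% passed in either direction in edgeR and in limma, while 2469 genes in edgeR and 2786 in limma had an unadjusted p under 0.05. DESeq2 called 1 of the 9, Grb10 (0.95, adjusted p = 0.0321), and 296 of 16066 genes over all. The interaction of Plagl1 was 1.53 ± 0.50 (edgeR, adjusted p = 0.231), that of Grb10 0.94 ± 0.26 (edgeR, adjusted p = 0.223) and that of Mest 0.24 ± 0.09 (limma, adjusted p = 0.227). Without Nlrx1-/- litter 3, Plagl1 (2.02, adjusted p = 0.0402) and Grb10 (1.17, adjusted p = 0.0405) passed in edgeR, in a fit where 1.95% of all genes passed in edgeR and 4.92% in limma. A response that passed in one genotype alone, as for Meg3, H19 and, with all libraries in the fit, Dlk1 and Plagl1, is therefore not shown to differ between genotypes. The same holds for genes of the lists below.

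Among the Nlrx1-/- litters, Igf2, Dlk1 and Meg3 were highest in litter 3, which also had the highest summed markers of fibroblasts and mural cells. In vehicle and LPS + IFNγ, Ndn (6.76 and 6.70 log2 CPM) and H19 (5.02 and 5.34) were also highest in that litter. Peg3, Plagl1, Grb10, Cdkn1c and Mest were not highest there in both conditions. The 8 markers (Col1a1, Col1a2, Col3a1, Dcn, Lum, Pdgfrb, Rgs5 and Foxc1) summed to 86.4 CPM in vehicle and 71.9 CPM with LPS + IFNγ in Nlrx1-/- litter 3, against 26.9 to 49.9 CPM in the other 14 libraries. All 8 were among the genes of the table, and the meninges had been removed before the cells were dissociated. Foxc1 went the other way and was lowest of the Nlrx1-/- litters in litter 3, at 2.69 log2 CPM in vehicle and 3.10 with LPS + IFNγ. Nor was litter 3 set apart by this list alone. Of the Nlrx1-/- litters it also had the highest sums of astrocyte markers (7913 and 6728 CPM) and ependymal markers (190 and 130 CPM) in vehicle and LPS + IFNγ. Across the 16 libraries, with values centered within each condition, the Pearson r of Igf2 with Dlk1 was 0.88. The r was 0.65 for Igf2 with its neighbour H19 and 0.64 for Dlk1 with its neighbour Meg3. Pairs from different loci gave values in the same range or higher, 0.74 for H19 with Meg3 and 0.65 for both H19 with Dlk1 and Igf2 with Meg3. Both wells of a litter share their animals, so the 16 points are not independent. The part of fibroblasts, mural cells, astrocytes and ependymal cells in these levels was not tested.

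**Figure D4:**
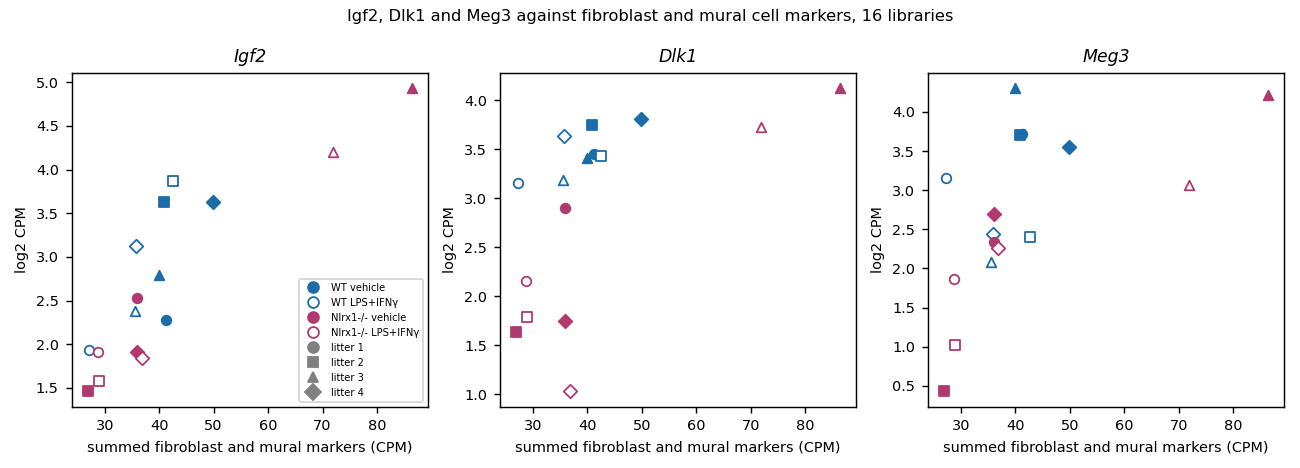
Log2 CPM of Igf2, Dlk1 and Meg3 (y axes) against the summed CPM of 8 fibroblast and mural cell markers (x axis) in the 16 libraries. Blue is WT and red Nlrx1-/-, filled is vehicle and open LPS + IFNγ, and shapes give the litter. Both libraries of Nlrx1-/- litter 3 lie to the right, at 71.9 and 86.4 CPM.

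The genes most like Ndn over the 16 libraries, among 12599 genes with a mean of at least 1 log2 CPM, were Tctn2 (Pearson r = 0.92), Mlxipl (0.92), Ston2 (0.91), Wnt7b (0.91) and Apc2 (0.91). Wnt7b, a secreted Wnt ligand, had a mean of 8.27 ± 0.13 log2 CPM in WT vehicle and 7.90 ± 0.31 in Nlrx1-/- vehicle (SD, n = 4). With LPS + IFNγ, Wnt7b was at 8.39 ± 0.10 in WT and 7.45 ± 0.51 in Nlrx1-/-. Part of this likeness is the difference between genotypes that Ndn was chosen for. With values centered within each condition, the r of these 5 genes was between 0.72 and 0.80, and the 5 most alike were then Tns2, Fut9, Dtx1, Nsun7 and Cpt2, with 0 genes shared between the lists. Among the other imprinted growth genes the centered r with Ndn was highest for Dlk1 (0.71) and lowest for Grb10 (-0.74).

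Other imprinted genes were read from lists. The shares of all genes called in edgeR apply to every list below, and counts near them are no result about a list. In WT 23.7% of all genes rose and 20.2% fell, and in Nlrx1-/- astrocytes 25.3% rose and 24.2% fell. Between genotypes with LPS + IFNγ, 2.65% were higher and 2.38% lower in Nlrx1-/-. Of 16066 genes in edgeR, 3152 had an unadjusted p under 0.05 between genotypes in vehicle, 4559 with LPS + IFNγ and 2469 for the interaction. Of 20 other paternally expressed genes 18 were tested, and 1 rose and 5 fell in WT while 2 rose and 8 fell in Nlrx1-/- astrocytes. Nnat, a small membrane protein, fell by 0.95 ± 0.12 on the log2 scale in WT (edgeR, adjusted p = 8.49e-05) and by 1.25 ± 0.12 in Nlrx1-/- (edgeR, adjusted p = 1.17e-05). Snrpn, which lies in the same imprinted region as Ndn and encodes a spliceosome protein, rose by 0.21 ± 0.05 in WT (edgeR, adjusted p = 0.00508). Rasgrf1, an exchange factor for Ras, had the lowest Nlrx1-/- response and fell by 1.32 ± 0.39 (limma, adjusted p = 0.0130). Its level in Nlrx1-/- vehicle was low and spread, between -1.68 and 1.67 log2 CPM. Rtl1, a retrotransposon-derived gene of the Dlk1 locus, rose by 2.65 ± 0.99 in Nlrx1-/- (edgeR, adjusted p = 0.0459) from a level between -4.13 and -0.80 log2 CPM, where few reads lie behind it. The median log2 response of the list was -0.25 in both genotypes, against -0.02 and -0.03 over all genes. With LPS + IFNγ, 0 of the 18 were higher and 2 lower in Nlrx1-/-, Nnat (-0.75 ± 0.21, edgeR, adjusted p = 0.0489) and Snrpn (-0.28 ± 0.07, edgeR, adjusted p = 0.0471). Snurf, whose transcript also contains Snrpn, had the lowest fitted response in WT and the highest in Nlrx1-/-, but was at the floor of the table in 12 of the 16 libraries and no fold is given for it. In vehicle and in the interaction 0 of the 18 passed in edgeR or limma, with 6 and 3 at an unadjusted p under 0.05.

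Of 13 other maternally expressed genes 7 were tested, and 1 rose and 3 fell in WT while 3 rose and 2 fell in Nlrx1-/- astrocytes. Rian, a non-coding RNA of the Dlk1 and Meg3 locus, fell by 0.71 ± 0.16 in WT (edgeR, adjusted p = 0.00536), and its Nlrx1-/- response was -0.36 ± 0.17 (edgeR, adjusted p = 0.114). Commd1, which is transcribed across the paternally expressed Zrsr1, rose by 0.47 ± 0.07 in WT (edgeR, adjusted p = 0.000502) and its Nlrx1-/- response was 0.20 ± 0.07 (edgeR, adjusted p = 0.0449). Zim1, a zinc finger gene beside Peg3, fell by 1.45 ± 0.45 in Nlrx1-/- (edgeR, adjusted p = 0.0203). Its Nlrx1-/- level was low, between 0.87 and 2.63 log2 CPM in vehicle and between -1.15 and 1.31 with LPS + IFNγ. The medians were -0.22 in WT and -0.06 in Nlrx1-/-, against -0.02 and -0.03 over all genes. Between genotypes 0 of the 7 passed in edgeR in either condition, with 2 in each at an unadjusted p under 0.05. For the interaction 0 of the 7 passed, Rian included (0.35 ± 0.24, edgeR, adjusted p = 0.513).

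Of the 10 relatives of Ndn in the MAGE family 8 were tested, with Magel2 also counted among the paternally expressed genes. In WT 1 rose and 3 fell, and in Nlrx1-/- astrocytes 1 rose and 4 fell. Tro fell by 0.44 ± 0.08 in WT (edgeR, adjusted p = 0.000934) and by 0.52 ± 0.08 in Nlrx1-/- (edgeR, adjusted p = 0.000269). Magee2 rose by 1.12 ± 0.34 in WT (edgeR, adjusted p = 0.0229), and Magel2, a neighbour of Ndn, rose by 1.60 ± 0.46 in Nlrx1-/- (edgeR, adjusted p = 0.0149) from a level between -2.86 and -1.50 log2 CPM. Between genotypes 0 of the 8 passed in edgeR in vehicle and 0 with LPS + IFNγ, with 4 and 3 at an unadjusted p under 0.05. For the interaction 0 of the 8 passed in edgeR. The medians of the 8 log2 differences were 0.02 in vehicle, with 4 below 0, and 0.04 with LPS + IFNγ, with 3 below 0. Magel2, at a low level, differed by -1.67 ± 0.53 in vehicle (edgeR, adjusted p = 0.136) and by 0.33 ± 0.50 with LPS + IFNγ (edgeR, adjusted p = 0.706). The values of Ndn are not compared with these, since it was chosen for its difference.

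Of 10 reported binding partners of necdin, all were tested, and 3 rose and 1 fell in WT while 5 rose and 1 fell in Nlrx1-/- astrocytes. Trp53, the p53 tumor suppressor, rose by 0.44 ± 0.07 in WT (edgeR, adjusted p = 0.000383) and by 0.62 ± 0.07 in Nlrx1-/- (edgeR, adjusted p = 2.81e-05). E2f1, a transcription factor of the cell cycle, rose by 1.00 ± 0.20 in WT (edgeR, adjusted p = 0.00191), and its Nlrx1-/- response was 0.10 ± 0.19 (edgeR, adjusted p = 0.708). The interaction of E2f1 was -0.91 ± 0.27 (edgeR, adjusted p = 0.223), and 0 of the 10 partners passed for the interaction. Sirt1, a deacetylase that acts on p53, fell by 0.24 ± 0.07 in WT (edgeR, adjusted p = 0.0220) and by 0.21 ± 0.07 in Nlrx1-/- (edgeR, adjusted p = 0.0342). With LPS + IFNγ, 2 of the 10 were higher in Nlrx1-/-, E2f4 (0.40 ± 0.09, edgeR, adjusted p = 0.0396) and Bmi1 (0.29 ± 0.08, edgeR, adjusted p = 0.0450). The median of the 10 was 0.18, against -0.01 over all genes.

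Of 15 genes of the insulin-like growth factor axis, on which Igf2 and Grb10 act, 14 were tested, with Igf2r also counted among the maternally expressed genes. In WT 3 rose and 3 fell, and in Nlrx1-/- astrocytes 7 rose and 3 fell. Igfbp3, a binding protein that carries IGFs, rose by 1.14 ± 0.16 in WT (edgeR, adjusted p = 0.000272) and by 1.55 ± 0.17 in Nlrx1-/- (edgeR, adjusted p = 2.94e-05). Igfbp5, another binding protein, fell by 2.10 ± 0.13 in WT (edgeR, adjusted p = 5.67e-07) and by 1.42 ± 0.13 in Nlrx1-/- (edgeR, adjusted p = 8.76e-06). Igf1 itself had the lowest Nlrx1-/- response, -2.18 ± 0.87 (edgeR, adjusted p = 0.0586). Its Nlrx1-/- level was low, between -0.64 and 0.88 log2 CPM in vehicle and down to the floor at -4.13 with LPS + IFNγ. With LPS + IFNγ, 1 of the 14 was higher in Nlrx1-/-, the insulin receptor Insr (0.57 ± 0.14, edgeR, adjusted p = 0.0413). The summed level of the list was 3951 and 4730 CPM in the vehicle and LPS + IFNγ libraries of Nlrx1-/- litter 2, and 2495 and 4417 CPM in litter 4, against 1693 to 2514 CPM in WT. In those libraries of litter 2, Igfbp2 was at 10.63 and 10.79 log2 CPM and Igfbp3 at 9.57 and 10.79. The receptor Igf1r was at 7.34 and 7.36. The sum therefore weighs binding proteins most and does not describe the axis as a whole. The medians of the log2 responses were -0.06 in WT and 0.22 in Nlrx1-/-.

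Of the 10 proliferation genes, 3 rose and 2 fell in WT and 0 rose and 6 fell in Nlrx1-/- astrocytes. Mcm5, a subunit of the replicative helicase, rose by 0.75 ± 0.17 in WT (edgeR, adjusted p = 0.00393), and its Nlrx1-/- response was 0.11 ± 0.16 (edgeR, adjusted p = 0.617). Mki67, a marker of dividing cells, fell by 0.34 ± 0.11 in WT (limma, adjusted p = 0.0288) and by 0.78 ± 0.11 in Nlrx1-/- (limma, adjusted p = 0.000133). Ccnb1, a mitotic cyclin, fell by 0.38 ± 0.09 in WT (edgeR, adjusted p = 0.00527) and by 0.74 ± 0.09 in Nlrx1-/- (edgeR, adjusted p = 5.86e-05). The interaction was below 0 for all 10, with a median of -0.51 against -0.02 over all genes, and 0 of 10 passed in edgeR or limma while all 10 had an unadjusted p under 0.05.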

How the data were processed

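RNA was sequenced from 16 cultures of primary mouse astrocytes, in 4 groups of 4 litters taken from the sample labels. The authors quantified transcripts of GRCm39 with Salmon 1.7.0, the submitters' processing notes naming limma 3.58.1 as well, and deposited the expected count, the TPM and the effective length of each transcript. The authors' per-gene table of CPM-like signal comes from length-scaled counts, filtered and TMM-scaled, and the deposited log2 CPM table is its log2 with a small prior count. Replicates were not pooled across litters.

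For each gene, the expected counts of its transcripts were added, using the 106440 of 129698 transcripts whose RefSeq accession, without its version, could be paired with a symbol (96.7% to 97.3% of reads), and the sums were rounded. Tests used the quasi-likelihood test of edgeR 4.0.16 with TMM scaling and offsets for transcript length, over the 16066 genes that filterByExpr kept (minimum count 10), in R 4.3.3, with Benjamini-Hochberg adjustment at 0.05. Responses and interaction used litters as blocks within genotype, since the design text gives both wells of a number the same mice. Wells of a litter correlated with r between 0.07 and 0.35 across genes after centering by condition, against a median of -0.05 for other litters. The genotype contrasts came from a model with 1 term per condition and no litter terms. Genes with under 95% of their reads paired in any library were tested with limma (trend) on the deposited log2 CPM of 16707 genes. Errors are SE for fits and SD for levels. P-values of responses and interaction measure the spread of the responses between litters, pooled over both genotypes. Those of the genotype contrasts measure the spread between libraries within conditions, pooled over all conditions. That spread counts both wells of a litter as independent. Fits were tested on simulated data. Alternatives covered the test (DESeq2 1.42.0, limma-voom), source, normalization, offsets, filter, block, libraries, threshold and each litter left out. Tables were handled in Python 3.11.15 with pandas 2.3.3, numpy 2.4.6 and matplotlib 3.10.9.

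The 10 genes and all lists were chosen with earlier results of these data known, and 1 gene of the oligodendrocyte lineage list is not reported here. Other genes are named from those lists, as the members with the highest and lowest response in a genotype, or as the 5 genes with the highest Pearson r to Ndn. Nnat, Snrpn, Insr, E2f4 and Bmi1 from the pathway lists, and S100b, Gja1, Pdgfra, Dynlrb2 and Foxc1 from the marker lists, were named after their values were seen, as the list genes called between genotypes.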

Additional observations from a re-analysis of the deposited data

Results flagged for a closer look

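Of 60 groups of 4 litters examined (the levels of the 10 genes in 4 conditions and their responses in 2 genotypes), 6 held a litter far from the others, where the gap to its nearest neighbour divided by the whole range was above the 95% critical value of Dixon's test. Chance flags about 1 in 20 such groups. The ratio was 0.834 for Peg3 in WT with LPS + IFNγ, where litter 1 was high at 6.98 log2 CPM, and 0.837 for the Peg3 response in WT, where litter 4 was at -0.49. In WT vehicle it was 0.938 for Plagl1, with litter 1 low at 5.94 log2 CPM. In the same condition it was 0.847 for H19 and 0.886 for Cdkn1c, both with litter 2 high, at 5.59 and 5.64 log2 CPM. For Igf2 in Nlrx1-/- with LPS + IFNγ it was 0.872, with litter 3 high at 4.20 log2 CPM.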

How the results depend on the processing

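Of 930 values under another setting, 837 were rated the same, 47 weaker and 28 stronger, 16 changed sign and 2 of those without a test moved. For a tested gene, the same means an unchanged direction and side of the threshold. Weaker means that it lost the call and stronger that it gained it. Ndn between genotypes was rated by direction and size alone. The 930 include counts of called genes, rated the same when close to the main count. In WT 4 of 10 genes were called, again 4 in every fit that left out a litter, 3 with no replicate block and 6 when only the WT libraries were fitted, where Plagl1 and Dlk1 passed. Of the 7 genes called in the Nlrx1-/- response, 3 were called with no replicate block, 3 when only the compared libraries were fitted, 2 at a threshold of 0.01 and 4 to 7 when a litter was left out. For the interaction, 0 genes were called, with 1 in DESeq2 and 0 to 2 when a litter was left out. Between genotypes in vehicle 0 were called, with 1 in DESeq2 and 0 to 3 when a litter was left out. With LPS + IFNγ 1 was called, with 3 in DESeq2, 2 on counts recovered from the CPM table, 2 with the replicate block, 0 with only the compared libraries, 0 at 0.01, 0 in edgeR on paired transcripts (chosen after seeing the data) and 0 to 5 when a litter was left out, 5 being without Nlrx1-/- litter 3. The numbers of WT and Nlrx1-/- litters do not pair animals across genotypes, and libraries of the same number correlated with r from -0.09 to 0.18. The cause of these changes was not tested.

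Signs changed for small values. The Cdkn1c interaction was -0.04 in limma-voom, -0.01 without length offsets, -0.06 with no replicate block and -0.21 to 0.41 when a litter was left out. The Igf2 interaction was -0.22 to 0.10 when a litter was left out. The Igf2 difference in vehicle was 0.23 on recovered counts, 0.36 in edgeR on paired transcripts and -1.11 to 0.04 when a litter was left out. The Cdkn1c difference in vehicle was -0.19 to 0.32 when a litter was left out, and the Peg3 difference with LPS + IFNγ was -0.01 in edgeR on paired transcripts.

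Over all genes edgeR called 808 genes between genotypes with LPS + IFNγ, against 2438 in DESeq2, 384 in limma-voom, 2206 with the replicate block, 1235 with the litter as a random effect, 0 with only the compared libraries and 1 to 3333 when a litter was left out, highest without Nlrx1-/- litter 3. In vehicle it called 0, against 735 in DESeq2 and 0 to 1310 when a litter was left out, and for the interaction 0, against 296 in DESeq2 and 0 to 317. In limma the 1471 calls with LPS + IFNγ became 2815 with the replicate block, and the 1 call in vehicle became 591. By log2 CPM in place of TPM, 3 of the 10 genes kept their rank by level. Reads per library were 51 to 858 for Meg3 and 61 to 633 for Dlk1.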
